A study of Mus musculus with 4 samples.

Results

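A set of 10 genes of Wnt signalling, read by 16 probe sets, was followed across astrocyte cultures from 4 brain regions of mouse pups: the subventricular zone (SVZ), the ventral mesencephalon (VM), the olfactory bulb (OB) and the hippocampus (HC). The genes were the secreted inhibitors Sfrp1, Sfrp2, Sfrp4 and Wif1, the secreted enhancer Rspo2, the ligands Wnt6 and Wnt7a, and the receptors Fzd1, Fzd2 and Fzd7. Members were taken by name: every probe set that the platform annotation assigns to 1 of these genes and to no other. They are 10 of the 12393 genes that the array names singly. Each culture came from CD-1 mice, an outbred stock, at postnatal day 3, and was measured on 1 Affymetrix array. Dissociated tissue was plated in medium with 10% serum, shaken at 200 rpm to leave mainly astroglia, and then replated as a monolayer. No treatment was given, and no control group stands beside the regions. Tissue of littermates was pooled, with 4 pups given in 1 sentence of the study's description and 3 in the next.

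Wnt proteins are lipid-bearing secreted ligands that bind Frizzled receptors together with Lrp5 or Lrp6. In the best known branch, binding keeps beta-catenin from being destroyed, and beta-catenin then switches on target genes with TCF/LEF factors. Secreted proteins tune the signal: Sfrp and Wif1 proteins bind Wnts outside the cell, and R-spondins keep Frizzled receptors at the surface. In the developing brain the pathway is known for patterning, for the growth of progenitors, for vessel formation and, in the meninges and neural crest, for mesenchymal cell fates.

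With 1 array per region there is no replicate check, no p-value was computed, and the number of arrays limits the precision. Signals are intensities on a linear scale, and values under a floor of 122.1, the median of all signals, were treated as equal to it, so "at least" marks a fold whose lower value sits at that floor. Differences were read against the scatter between 2 probe sets of the same gene, which for 1977 genes gave an SD of 0.22 for a log2 difference of 2 arrays. A difference under 2 such SDs, 1.36-fold, is called within the probe set scatter; it reflects how well an RNA was measured, and says nothing of how cultures of 1 region vary. A gene is called apart in a region when it is at least 2-fold above the highest, or below the lowest, of the other 3 arrays. In RNA of a whole culture, fewer cells of a type and less RNA per cell cannot be told apart.

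The cultures differed in cell type markers. Of 15 astrocyte markers 14 were above the floor on 1 or more arrays, the glutamate transporter gene Slc1a2 being the exception. Their summed signal was 15962 in VM, 26547 in OB, 27268 in SVZ and 42174 in HC. The sums hide markers that ran differently: of the 14, 7 were highest in HC, 5 in OB and 2 in SVZ. Gja1 alone read 9010 in OB. Aldh1l1 was called lower in OB (310.8, against 5106 in SVZ), whereas Gjb6 and Slc4a4 were called higher there. The 16 microglia and macrophage markers summed to 35712 in OB and 38042 in HC, against 596 in SVZ and 471 in VM. The 18 fibroblast and meningeal markers summed to 75019 in OB, 54767 in VM, 29306 in HC and 9301 in SVZ.

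Of the 10 Wnt genes, 5 were called higher in OB, namely Sfrp4, Rspo2, Wnt6, Fzd2 and Fzd7, and none was called lower there. Some array put 7987 genes above the floor, and among these the same rule called 1.87% higher and 1.55% lower in OB. Every share of all genes given in this text is a share of these 7987. Wif1 alone was called higher in VM (1.57% of all genes), and Sfrp4 alone was called lower in SVZ (1.01%). No member was called higher in SVZ (1.28%), lower in VM (0.563%), or higher or lower in HC (2.49% and 0.488%). The members were picked with earlier results of these arrays known, so these counts describe them and carry no weight as a test. Of the 10, 9 were above the floor on 1 or more arrays and 3 on all 4. Sfrp2 stayed below it everywhere, with signals of 12.2 to 20.5 that have no order. A range of 2-fold or more over the 4 arrays was seen in 8 members, against 31% of all genes, and one of 4-fold or more in 5 members, against 9.03%.

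**Figure D1:**
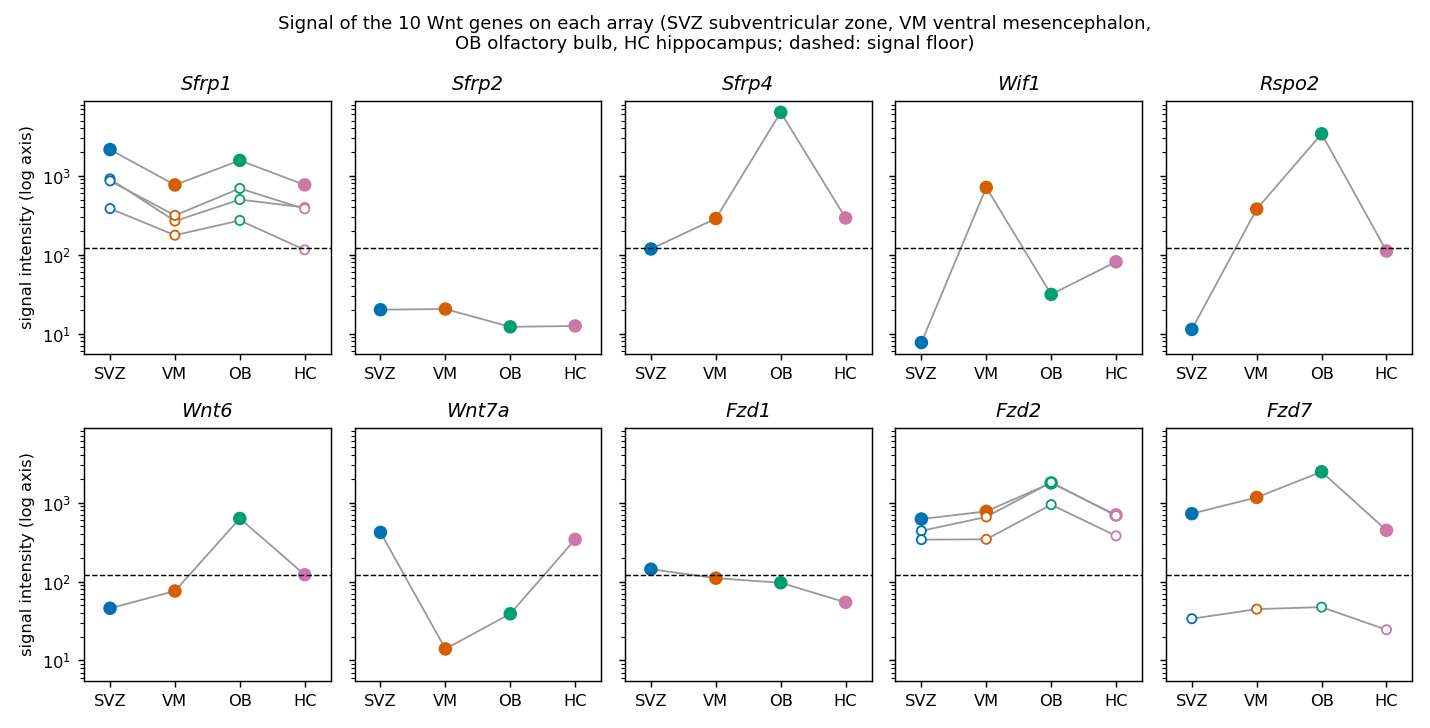
Signal intensity (log axis) of the 10 Wnt genes on the 4 arrays, 1 panel per gene. Filled points are the probe set that stands for the gene, open points its other probe sets, and the dashed line is the floor of 122.1. Sfrp4, Rspo2, Wnt6, Fzd2 and Fzd7 peak in OB, Wif1 peaks in VM, and Wnt7a is high in SVZ and HC.

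Secreted inhibitors followed 3 different patterns. Sfrp4, a Wnt-binding protein with a Frizzled-like domain that is common in mesenchymal cells, had a signal of 6384 in OB, against 292.2 in HC, 287.4 in VM and 118.3 in SVZ. OB stood alone: it was 21.8-fold above the next array, the second widest such gap of the 7987 genes in that culture. HC and VM values lay within the probe set scatter of each other. SVZ was just under the floor and at least 2.35-fold below VM; this low call ended when the floor was set at the 70th percentile of all signals.

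Wif1, which binds Wnts through a domain of its own unrelated to Frizzled, was above the floor in VM only. Its signal was 712.6 there, against 81.3 in HC, 31.4 in OB and 7.7 in SVZ. VM was at least 5.84-fold higher, the 12th widest gap in that culture, and the other 3 arrays, all below the floor, have no order. With a floor at the 70th percentile the log2 gap was 0.98, just short of 2-fold.

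Sfrp1, an inhibitor made by radial glia in the developing forebrain, was above the floor in all 4 cultures and was not called apart in any. The strongest of its 4 probe sets read 2151 in SVZ, 1567 in OB, 768 in HC and 766 in VM. On that probe set SVZ and OB were the 2 high cultures, 1.37-fold apart, a difference just beyond the probe set scatter. HC and VM were level there, and SVZ was 2.80-fold above HC and 2.81-fold above VM. The cultures below SVZ differed by probe set. One of the others read 914.6 in SVZ, 499.7 in OB, 397.6 in HC and 266.9 in VM. Another read 862 in SVZ and 691.2 in OB, within the probe set scatter of each other. All 4 probe sets gave SVZ the highest value and had the same sign of shift in every region, with log2 shifts from the mean of the other 3 arrays of 0.98 to 1.28 in SVZ and 0.12 to 0.56 in OB.

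Rspo2, an R-spondin that acts through Lgr receptors and the ubiquitin ligases Znrf3 and Rnf43 to strengthen Wnt signalling, had the second largest shift of the 10 genes. Its signal was 3409 in OB and 379.1 in VM, and it was below the floor in HC (111.3) and SVZ (11.3). OB was 8.99-fold above VM, the 9th widest gap of that culture. VM was in turn at least 3.10-fold above both remaining cultures. At this floor the 4 arrays thus formed 3 steps, HC and SVZ being level only because both were raised to it.

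The ligands Wnt6 and Wnt7a were high in different cultures. Wnt6, a ligand made by surface ectoderm and other epithelia in embryos, read 629.7 in OB, against 122.0 in HC, 75.8 in VM and 45.8 in SVZ. It was above the floor in OB only, at least 5.16-fold higher and 20th by gap there. With a floor at the 70th percentile the log2 gap was 0.80 and Wnt6 was no longer called. Wnt7a, a neural ligand that acts on brain vessels, read 420.1 in SVZ and 342.5 in HC, against 39.0 in OB and 14.0 in VM. The high pair lay within the probe set scatter of each other (1.23-fold), and each was above the low pair, by at least 3.44-fold in SVZ and at least 2.81-fold in HC. Wnt7a could be called apart in no single region, since 2 cultures shared the high level. With a floor at the 70th percentile its log2 shift in SVZ fell from 1.29 to 0.22.

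Among the receptors, Fzd2 and Fzd7 shared a peak in OB and Fzd1 was near the floor. Fzd2 read 1778 in OB, against 775.1 in VM, 697.6 in HC and 620.3 in SVZ. OB was 2.29-fold above the next culture, and neighbouring values among the other 3 lay within the probe set scatter. Its 3 probe sets gave OB log2 shifts of 1.36 to 1.63. Fzd7 read 2461 in OB, 1166 in VM, 725.1 in SVZ and 445.9 in HC. All 3 steps in this order exceeded the probe set scatter, with OB 2.11-fold above VM. Its other probe set was below the floor on all 4 arrays (24.5 to 47.4), so its values have no order. With both averaged the log2 gap of OB fell to 0.54, short of 2-fold. Fzd1 read 143.3 in SVZ, at least 1.17-fold above the other arrays, which were below the floor at 54.5 to 110.3; that difference is within the probe set scatter.

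**Figure D2:**
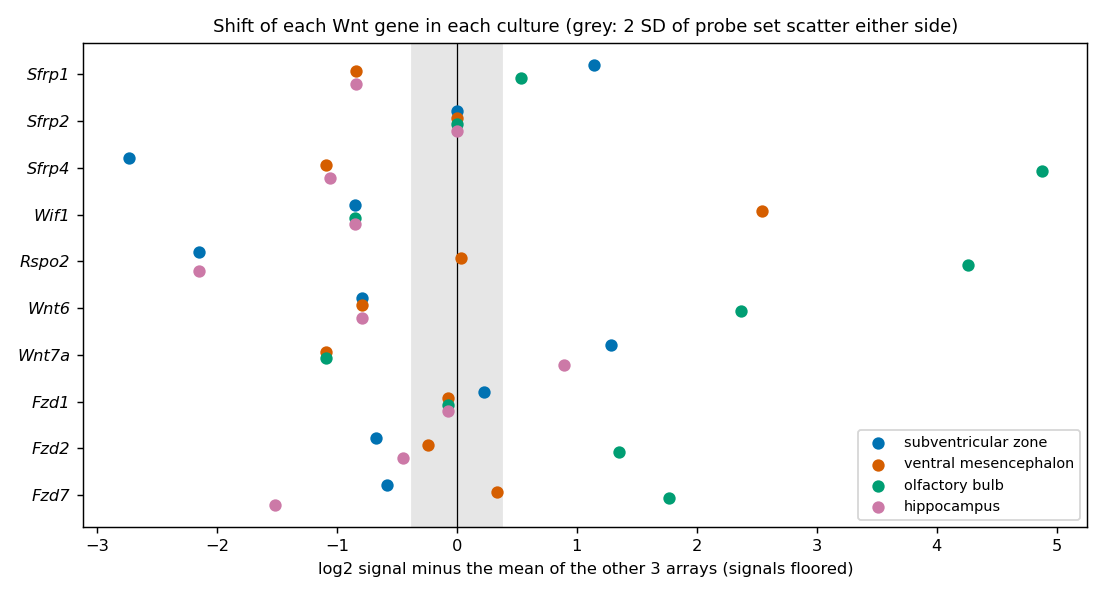
Log2 signal of each Wnt gene in each culture minus the mean of the other 3 arrays, after raising low signals to the floor. The grey band is 2 SD of the probe set scatter of such a shift to either side of 0. OB points of Sfrp4 (4.88) and Rspo2 (4.26) lie farthest from 0, and all points of Sfrp2 sit at 0 because all its signals were below the floor.

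Over all 10 genes the median log2 shift was 0.95 in OB, -0.63 in SVZ, -0.16 in VM and -0.81 in HC, while over all 12393 genes it was 0.00 in each. In OB 6 members lay above the mean of the other arrays and 3 below, and in HC 1 lay above and 8 below; Wnt7a was the member above. The medians outside OB rested on its array: without it they were 0.00 in SVZ, 0.12 in VM and -0.06 in HC.

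Pairs of cultures show the same values 2 at a time, and the 6 pairs share arrays. OB had 6 members 2-fold or more above HC (Sfrp1, Sfrp4, Rspo2, Wnt6, Fzd2 and Fzd7), where 5.23% of all genes were, and HC had 1 above OB, Wnt7a, where 8.69% were. The same 6 were higher in OB than in VM (5.53% of all genes), with Wif1 alone the other way (6.46%). Sfrp1 passed 2-fold in both pairs on its strongest probe set, but not on each of its probe sets. Between SVZ and OB 1 member, Wnt7a, was higher in SVZ (9% of all genes) and 5 were higher in OB (8.39%). SVZ had Sfrp1 and Wnt7a above VM (5.45%), which had Sfrp4, Wif1 and Rspo2 above it (4.97%; 10.4% of all genes either way). In VM Wif1, Rspo2 and Fzd7 were above HC (6.77%), and Wnt7a was the other way (9.43%). At the floor of 122.1, SVZ and HC were the closest pair for these genes. Sfrp1 was higher in SVZ (4.95%) and Sfrp4 was higher in HC (6.54%). That rank depended on the floor, which made Rspo2 (11.3 in SVZ, 111.3 in HC) and Wif1 (7.7 and 81.3) level. The pair held 6 members 2-fold apart at a 30th percentile floor, against 5 for SVZ and VM and 5 for VM and HC. At a 70th percentile floor each of these pairs held 1. Averaging all probe sets left SVZ and HC the closest, with 2.

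Of the 10 genes, 6 had a promoter in the RefSeq promoter table. The 250 bases before the start site are shown for Wnt6 and Fzd7, both high in OB, for Wif1, high in VM, and for Wnt7a, high in SVZ and HC, to set genes of like and unlike pattern side by side. Sequences are from GRCm38.p6, on the strand of the gene, and capitals mark matches on either strand to GGGCGG (the GC box bound by Sp factors), TATAAA (the TATA box) and CTTTGA (the TCF/LEF core). Wnt6 lies at chr1:74771642-74771891 (plus strand), Fzd7 at chr1:59481897-59482146 (plus), Wif1 at chr10:121033754-121034003 (plus) and Wnt7a at chr6:91411354-91411603 (minus).
Wnt6: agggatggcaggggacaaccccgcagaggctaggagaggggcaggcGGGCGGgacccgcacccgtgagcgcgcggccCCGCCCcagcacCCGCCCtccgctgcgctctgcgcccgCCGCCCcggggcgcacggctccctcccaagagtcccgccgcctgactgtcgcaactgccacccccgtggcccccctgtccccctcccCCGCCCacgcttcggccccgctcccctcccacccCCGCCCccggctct
Fzd7: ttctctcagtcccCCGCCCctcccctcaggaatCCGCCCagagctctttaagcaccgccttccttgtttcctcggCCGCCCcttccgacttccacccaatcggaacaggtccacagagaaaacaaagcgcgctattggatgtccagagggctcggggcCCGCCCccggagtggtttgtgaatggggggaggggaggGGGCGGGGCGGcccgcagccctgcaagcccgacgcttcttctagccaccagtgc
Wif1: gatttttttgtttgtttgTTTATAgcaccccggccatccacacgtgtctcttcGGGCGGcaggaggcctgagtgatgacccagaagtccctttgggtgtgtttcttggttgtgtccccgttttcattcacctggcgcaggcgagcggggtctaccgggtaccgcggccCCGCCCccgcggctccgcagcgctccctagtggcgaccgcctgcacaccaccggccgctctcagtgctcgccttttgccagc
Wnt7a: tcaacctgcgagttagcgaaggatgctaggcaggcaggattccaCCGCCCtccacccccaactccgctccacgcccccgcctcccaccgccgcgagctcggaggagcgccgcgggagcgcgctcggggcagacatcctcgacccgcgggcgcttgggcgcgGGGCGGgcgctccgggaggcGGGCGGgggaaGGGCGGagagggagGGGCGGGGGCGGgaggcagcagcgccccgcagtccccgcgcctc

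The GC box letters occurred 6 times each in Wnt6, Fzd7 and Wnt7a and 2 times in Wif1, with adjoining matches in Fzd7 and Wnt7a that share a base or touch, while 32.7% of 32851 promoter windows of this length held at least 1. Wnt6 and Wnt7a, high in different cultures, had 79.6% and 77.6% GC against a median of 52.4%, at percentiles 98.6 and 97.6 of all windows. Fzd7 had 65.2% and Wif1 62.8%. Among the 4 shown, the TATA letters were present in Wif1 only, on the opposite strand with the first base at -232 (12.4% of all windows hold them). The CTTTGA letters were in none of the 4 (13.8% of all windows). The members with a promoter that are not shown ran differently. Fzd1 held CTTTGA at -242 on the opposite strand and TATAAA at -202 on its own strand. Neither Fzd1 nor Sfrp2 held the GC box letters. A match describes the letters in this window only.

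Genes with the most similar pattern were found by the root mean square difference of centred log2 signal over the 4 arrays, among 7987 genes, for the 5 members with a range of 4-fold or more. Nearest to Sfrp4 were the connexin gene Gjb2 (distance 0.34), the bicarbonate transporter gene Slc4a10 (0.51) and the tight junction gene Cldn11 (0.61), with OB signals of 5291, 3774 and 3052. Nearest to Rspo2 were the mesenchymal transcription factor gene Foxc2 (0.35; 4041 in OB), Gjb2 again (0.37) and the metalloproteinase gene Mmp16 (0.43). Nearest to Wnt6 were the sulfotransferase gene Sult1a1 (0.01), reelin, Reln (0.09), and the cation transporter gene Slc22a2 (0.14), all above the floor in OB only, at 635.7, 542 and 506.7. Nearest to Fzd7 were the selenoprotein gene Selenom (0.11), the cytokine signalling inhibitor gene Socs2 (0.15) and Cdc42ep5 (0.17), and nearest to Wif1 the enkephalin gene Penk (0.08), Plac8 (0.09) and the interleukin-13 receptor gene Il13ra2 (0.16). Among the members themselves the closest pairs were Wnt6 with Fzd2 (0.45), Fzd2 with Fzd7 (0.48) and Wnt6 with Fzd7 (0.55). Sfrp1 with Fzd1 (0.58) and Fzd1 with Fzd2 (0.65) came next, Fzd1 being near the floor throughout, and then Sfrp4 with Rspo2 (0.67). With 4 points and a shared floor, such distances describe these arrays only.

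The rest of the pathway was read through 7 lists of 104 further genes, 92 of them with a probe set and 62 above the floor on 1 or more arrays. Of these, 9 were called apart in a region, where the rule called 10.1% of all genes. The count was 4 higher and 1 lower in OB, 1 higher and 2 lower in SVZ, 1 lower in VM and none in HC. Among genes above the floor, calls were 0 of 4 ligands, 1 of 2 secretion genes, 2 of 14 receptors and 0 of 6 modulators. They were 2 of 20 cytoplasmic genes, 1 of 9 nuclear factors and 3 of 8 targets. The same 10.1% stands beside each of these small counts, which carry no weight as a test.

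Other Wnt ligands were mostly below the floor. Of 17, 13 were below it on all 4 arrays and none was called apart. The widest ranges were those of Wnt5a, a ligand of the beta-catenin-independent branch, with 599 in VM, 406.5 in HC, 378.1 in OB and 375.9 in SVZ, and of Wnt4, with 188.3 in VM and 150.9 in HC against values below the floor in the other cultures. Wnt5a in VM was 1.47-fold above the next array, beyond the probe set scatter but under 2-fold. Of the genes needed to release Wnts, Wls, the carrier that brings them to the cell surface, read 3674 in OB and 3492 in VM, against 1403 in HC and 824.7 in SVZ. Its high pair lay within the probe set scatter. Porcn, the enzyme that adds the lipid, was called lower in OB at the limit of the rule, with 114.1 there against 245.2 to 346.7 elsewhere, and lost the call under 4 of the 9 alternatives that kept the 2-fold rule.

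Of 24 other receptors and co-receptors, 20 had a probe set, 14 were above the floor and 2 were called, both lower in SVZ. They were Reck and Adgra2, membrane proteins known as the partners through which Wnt7a acts on brain endothelium. Reck read 80.8 in SVZ, against 398 in VM, 377.8 in OB and 361.7 in HC, and Adgra2 read 90.8, against 1018, 790.5 and 330.5 in the same cultures. Of the 2 cultures high in Wnt7a, SVZ had both partners below the floor and HC had both above it. Neither was called once the floor stood at the 70th percentile. The co-receptor Lrp6 ranged from 314.6 in SVZ to 541.6 in OB, a 1.72-fold range beyond the probe set scatter, though neighbouring arrays lay within it. The co-receptor Lrp5 was above the floor in OB only, at 166.5, within the probe set scatter of the floor.

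None of the 14 other secreted modulators, 12 with a probe set and 6 above the floor, was called apart. Sostdc1, an antagonist of Wnt and BMP signalling, had the pattern of Wnt7a: 421.1 in SVZ and 343.1 in HC, against 75.2 in VM and 3.0 in OB. Dkk3, a Dickkopf family protein, read 791.7 in OB and 737.9 in SVZ, against 327.3 in VM and 318.2 in HC. Its other probe set kept that order of OB, SVZ, VM and HC (589.1, 525.6, 407.9 and 247.3), but there SVZ and VM lay within the probe set scatter. Rspo1, the other R-spondin with a probe set, was above the floor in OB only, at 220.3, at least 1.80-fold higher.

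Inside the cell, 2 of 23 measured cytoplasmic genes were called, both higher in OB. Prickle1, a planar cell polarity gene, read 504.2 in OB, against 244.1 in VM, 74.8 in HC and 25.1 in SVZ. Dact1, a Dishevelled-binding protein, read 288.3 in OB against 138.4, 53.4 and 35.7 in the same order of cultures. Both calls ended with the higher floor (log2 gaps 0.48 for Prickle1 and 0 for Dact1) and with log2(signal + 32) in place of a floor (0.96 and 0.91). Beta-catenin itself, Ctnnb1, was even by comparison, with a range of 1.33-fold over the 4 arrays. Of 10 nuclear factors measured, 1 was called: the corepressor gene Tle4 was lower in VM, at 149.8 against 438.2 to 609.3. That call ended with the higher floor and with its 2 probe sets averaged. The other probe set of Tle4 was below the floor on all 4 arrays (23.6 to 78.7), so averaging could only narrow the gap.

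Genes listed as beta-catenin targets were called in different cultures. Of 13 measured, 3 were called: Nkd2, a Dishevelled inhibitor, and Apcdd1, a membrane inhibitor of Wnt signalling, were higher in OB, and the cyclin gene Ccnd1 was higher in SVZ. Nkd2 read 455.9 in OB, against 199 in VM, 48.0 in HC and 19.3 in SVZ, and its call ended with the higher floor (log2 gap 0.34) and was not made by its other probe set. Apcdd1 read 358.5 in OB, against 150.6 in HC, 88.2 in VM and 64.5 in SVZ, and its call ended with the higher floor and when its 4 probe sets were averaged. Its other probe sets read 194.5, 136.2 and 80.6 in OB, the highest value of each, so values raised to the floor enter that average. Ccnd1 read 10374 in SVZ, against 4341 in VM, 2698 in HC and 2169 in OB, and all 3 of its probe sets were called. Axin2, the target most often used as a readout of the pathway, read 293.1 in HC, 232 in OB, 228 in SVZ and 215.1 in VM, each neighbour within the probe set scatter, and Lef1 was below the floor on all 4 arrays (1.6 to 23.7).

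**Figure D3:**
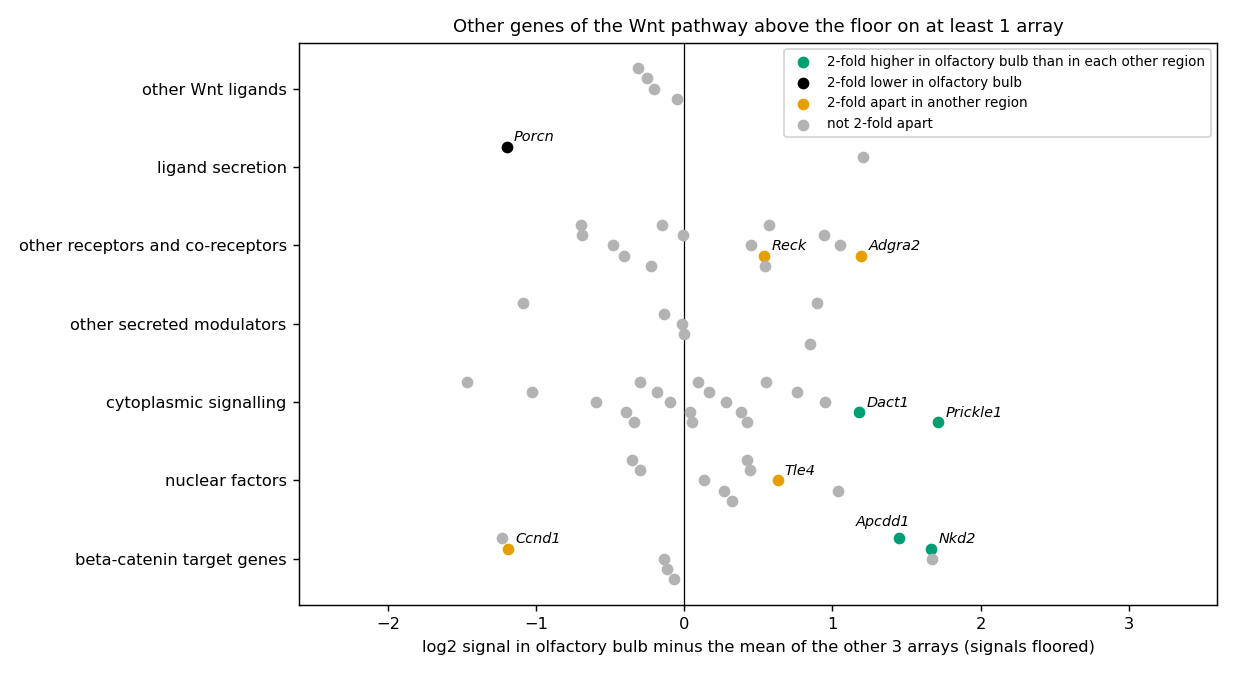
Log2 signal in OB minus the mean of the other 3 arrays for other Wnt pathway genes above the floor on 1 or more arrays, by list; vertical offsets within a list only separate the points. Green points (Prickle1, Dact1, Nkd2, Apcdd1) were at least 2-fold higher in OB than in each other culture, the black point (Porcn) was 2-fold lower, and orange points were 2-fold apart in another culture.

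Marker lists of other cell types moved with some of these genes. The fibroblast and meningeal list was highest in OB, where Sfrp4, Rspo2, Wnt6, Fzd2 and Fzd7 peaked: 17 of its 18 markers were above the floor there, 16 in VM, 16 in HC and 10 in SVZ, with the transporter gene Slc6a13 below it on all 4. Of the 17, 9 were highest in OB, 5 in VM and 3 in HC. As a share of the highest array, the summed list stood at 100% in OB, 73% in VM, 39.1% in HC and 12.4% in SVZ, while Sfrp4 stood at 100%, 4.5%, 4.58% and 1.85% and Fzd7 at 100%, 47.4%, 18.1% and 29.5%. Foxc2, a marker on that list and the gene nearest to Rspo2, read 4041 in OB, 736.3 in VM, 160.4 in HC and 19.8 in SVZ. Other markers of the list ran differently: Lum read 127.5 in OB against 1048 in VM, and Thy1 read 249.6 in OB, its lowest, against 1047 in HC. The ensheathing and Schwann cell list, with 8 of 10 markers measured, summed to 3814 in OB and 3844 in HC, against 1648 in SVZ and 1409 in VM. Pmp22 made up most of these sums, at 2044 in OB, 3109 in HC, 1509 in SVZ and 924.5 in VM. Of the list's 7 markers above the floor 4 were highest in OB, 2 in HC and 1 in VM. Sox10 (355.4) and Ngfr (662.3) were called higher in OB, Npy (294.6, against 135.3 in OB) was called higher in HC, and Foxd3 was below the floor on all 4 arrays. Beside Wif1, the endothelial list was highest in VM (498, against 116 to 277), with 1 of 9 markers, Cdh5, above the floor. Beside Wnt7a, the oligodendrocyte lineage list summed to 5776 in SVZ and 6913 in HC, against 2380 in OB and 2118 in VM, with Mog, Mag, Cspg4 and Mobp below the floor on all 4. Olig1 and Cnp made up most of the SVZ and HC sums. Olig1 read 3805 in SVZ, 2700 in HC, 620.7 in VM and 171.1 in OB. Cnp was called higher in HC (3286) and read 1608 in SVZ, 1489 in OB and 1104 in VM. Its other markers differed among themselves: Olig2 read 243.9 in SVZ and 241 in HC and was below the floor elsewhere, Pdgfra read 431.6 in HC and 4.4 in SVZ, and Sox10 was above the floor in OB only. The neuronal list was highest in SVZ (4682, against 566 to 1556). Stmn2 alone read 3465 there, and only 4 of the 10 neuronal markers were above the floor on 1 or more arrays. The choroid plexus and ependymal lists were highest in HC (12402 and 3485). Ttr gave 8960 of the choroid plexus sum, and 5 of 8 measured markers were above the floor on 1 or more arrays. Aqp1 of that list read 1457 in HC and 928.6 in OB. Of 8 ependymal markers 3 were measured. The sum of the pericyte and smooth muscle list was even (16527 to 19892), but Acta2 (9301 to 11576) and Tagln (5224 to 6331) dominated it. Of its 5 markers above the floor 2 were highest in OB, 2 in SVZ and 1 in VM. Rgs5 was called higher in OB (655.1, against 163 in VM), and Pdgfrb read 2438 in OB and 765.6 in SVZ. The part of these cell types in the Wnt gene levels was not tested.

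**Figure D4:**
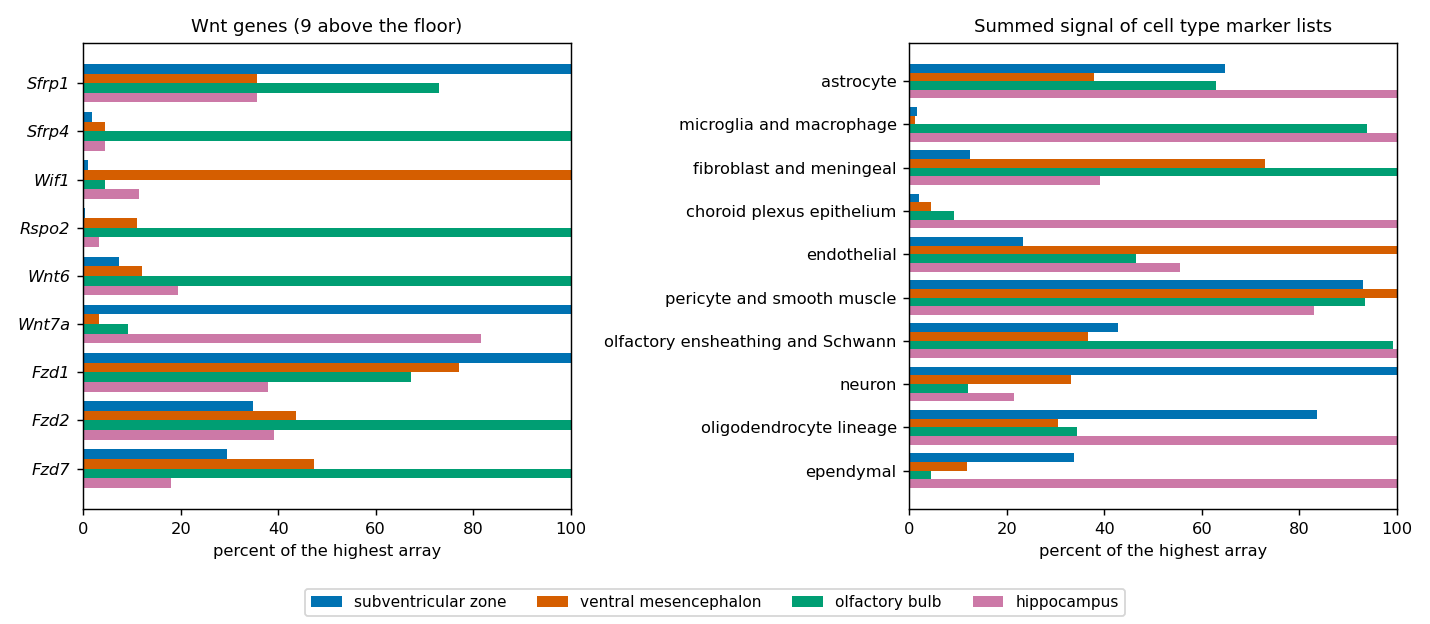
Signals of the 9 Wnt genes above the floor (left) and summed signals of the cell type marker lists (right) on each array, as a percentage of the highest array of that gene or list. In the fibroblast and meningeal list VM reaches 73% of OB, whereas in Sfrp4 it reaches 4.5% and in Rspo2 11.1%.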

How the data were processed

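The authors deposited 1 table with a signal intensity per probe set on a linear scale for 22690 probe sets on 4 arrays, made with GCOS 1.4 per the submitters' processing notes; the sources used here do not name its algorithm or settings, and detection calls were not used. The 2% trimmed mean was 400.1 to 400.2 on every array, so signals were used unscaled; global scaling of this kind shifts all genes against a culture's own total. Of the probe sets 20380 had 1 gene symbol, 691 several and 1555 none listed, beside 64 controls; 20351 of the 20380 matched a RefSeq gene ID. Of several probe sets the one brightest on average (log2) stood for the gene, after raising values to the median of all signals. Calls, shifts and alternatives were computed in Python 3.11.15 with pandas 2.3.3, and the calls were tested on simulated data. Genes of a list were named when called, or as the 2 with the widest range where none was called. Wls, Lrp6, Rspo1, Ctnnb1, Axin2, Lef1 and the markers named were chosen after their values were seen, and the members and lists were chosen with earlier results of these data known. List genes without a single-gene probe set were not analysed here. The array names no genome build, so coordinates are those of the RefSeq promoter table.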

Additional observations from a re-analysis of the deposited data

How the results depend on the processing

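No paired analysis was possible because each region has 1 array and the regions share a single replicate number. Of 240 member shifts recomputed with all arrays, 177 moved by less than 1 SD of the probe set scatter of a shift (0.19). No called shift changed sign under any alternative, but this carries little weight. A culture 2-fold beyond every other array keeps its sign under another floor, an added constant or a left-out array. The OB count of 5 was 4 to 6 under every alternative at 2-fold. With it at the 70th percentile, calls fell to 0 for SVZ (lower) and 0 for VM (higher), members with a 2-fold range to 5, and members apart to 1 in each of SVZ against VM, SVZ against HC and VM against HC pairs. Median shifts were then -0.30 in SVZ, 0.67 in OB and -0.39 in HC, and list calls were 0 for ligand secretion, receptors, cytoplasmic and nuclear genes and 1 for targets. With it at the 30th percentile, 2 members were lower in SVZ, 6 differed between it and HC, and list calls were 3 for ligands, 5 for receptors, 5 for modulators and 4 for cytoplasmic genes. With log2(signal + 32) these were 2, 5, 1, 4, 3 and 1, with 0 for ligand secretion and an HC median of -0.60. Averaging all probe sets gave an OB median of 0.65 and 0 nuclear calls, and either rescaling gave 0 ligand secretion calls; no scaling moved the median shift of all genes by over 0.1. At 3-fold, 3 members were higher in OB and 0 lower in SVZ, the pairs held 3 (SVZ against VM), 0 (against HC), 4 (VM against OB), 2 (against HC) and 4 (OB against HC), and all lists but ligands and modulators, which had no call before, fell to 0. Leaving out 1 array at a time, median shifts ran from -0.97 to -0.058 in HC, 0.82 to 1.15 in OB, -1.05 to 0.00 in SVZ and -0.60 to 0.12 in VM. Member calls ran from 0 to 1 for HC higher (1 without SVZ), 0 to 2 for HC lower (2 without SVZ, 1 without VM), 0 to 1 for OB lower (without VM), 0 to 1 for SVZ higher (without OB or HC), 1 to 2 for SVZ lower (without HC), 1 to 2 for VM higher (without OB) and 0 to 1 for VM lower (without OB or HC). List calls ran from 3 to 5 for targets (5 without VM or HC), 1 to 4 for cytoplasmic genes (1 without OB, 4 without VM), 1 to 2 for ligand secretion (1 only without OB), 0 to 1 for nuclear factors (0 without VM) and 2 to 4 for receptors (4 without VM or HC), and were 2 for modulators without any 1 array. Their cause was not tested. Signals near or below the floor limit every comparison of Wif1, Wnt6 and Fzd1, those of Wnt7a and Rspo2 with their low cultures, and those of Sfrp4 with SVZ.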
